A study of Homo sapiens with 6 samples.

Results

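The EGF receptor family and its ligands were followed in HT29 cells, a human colorectal adenocarcinoma line, as 10 genes taken by symbol from the 60676 genes of the deposited tables: the ligands AREG, EREG, BTC, EPGN, TGFA and HBEGF, the receptors EGFR, ERBB2 and ERBB3, and the intracellular receptor inhibitor ERRFI1. All 10 symbols were found once each. The cells were kept for 48 h in control medium (untreated), in histidine-depleted medium or in tryptophan-depleted medium, and RNA of 2 samples per condition was sequenced. Setting histidine depletion against tryptophan depletion asks which changes go with the missing histidine and which also follow the lack of another essential amino acid. Histidine-free medium was made on an RPMI base and tryptophan-free medium on a DMEM F-12 base, both with dialyzed serum, so the missing amino acid and the medium base cannot be told apart in a difference from untreated cells, whose medium base for RNA-seq was not named.

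Receptors of this family are tyrosine kinases of the cell surface that pair up when a ligand binds and then signal through the RAS-ERK and PI3K-AKT cascades. The ligands are made as membrane-anchored precursors and are released by metalloproteases. In the gut, EGF receptor ligands are growth signals for epithelial stem and progenitor cells, and ERRFI1 is a feedback inhibitor that binds the kinase domain of an activated receptor and shuts it off.

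The libraries held 46390819 to 64388876 reads. Of 11 colon epithelial markers, 10 exceeded a level of 1 TPM (transcripts scaled to a fixed library total) in each library, and CDX1 did not. All 8 fibroblast and endothelial markers stayed under 1 TPM in each library, as did 6 of 7 leukocyte markers. The exception was LYZ, a lysozyme that secretory cells of the gut also make, with 2767 and 2966 TPM untreated, 497 and 579 without histidine, and 1573 and 1571 without tryptophan. The epithelial markers summed to 8851 and 9361 TPM untreated, 9860.03 and 10439 without histidine, and 12814 and 12680 without tryptophan, and single ones moved with the condition. LGALS4, a galectin gene, had 1792 and 1870 TPM untreated, 543 and 611 without histidine, and 1941 and 1902 without tryptophan. KRT20, a keratin gene of mature colonocytes, had 395 and 415, 1248 and 1268, and 2064 and 2043 TPM in the same order, and CEACAM5, an adhesion gene, 9.19 and 9.99, 1.16 and 1.82, and 142 and 140.3 TPM. The part of these shifts in the changes of the EGF receptor family was not tested. The labels do not say that the 2 samples of a condition were separate cultures. The p-values therefore rest only on the spread between such samples, in part pooled over genes, which may be technical. The data are bulk RNA, so a change in expression per cell and a change in the share of cells that express a gene cannot be told apart.

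In GRCh38, 4 of the ligand genes lie in a stretch of 486.1 kb on chromosome 4. EPGN (ENSG00000182585, 74308470 to 74316789, plus strand) is followed by EREG (ENSG00000124882, 74365145 to 74388749, plus strand), AREG (ENSG00000109321, 74445136 to 74455005, plus strand) and BTC (ENSG00000174808, 74744759 to 74794523, minus strand). The gaps between them are 48.355, 56.386 and 289.753 kb, and the stretch holds no other protein-coding gene of the tables. TGFA (ENSG00000163235) lies on chromosome 2 (70447284 to 70554193, minus strand) and HBEGF (ENSG00000113070) on chromosome 5 (140332843 to 140346603, minus strand). EGFR (ENSG00000146648) lies on chromosome 7 (55019017 to 55211628, plus strand), ERBB2 (ENSG00000141736) on chromosome 17 (39687914 to 39730426, plus strand), ERBB3 (ENSG00000065361) on chromosome 12 (56076799 to 56103505, plus strand) and ERRFI1 (ENSG00000116285) on chromosome 1 (8004404 to 8026309, minus strand). Genes on the opposite strand cover 6.93% of the exonic bases of ERBB2, 3.71% of those of ERRFI1 and 1.17% of those of EGFR. For ERBB3, 0.265% is shared with a gene on the same strand, and the other members share none.

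The promoters of the 4 ligand genes on chromosome 4 are shown because AREG, EREG and BTC changed in the same directions while EPGN did not. Each window is the 250 bases before the transcript start of RefSeq (GRCh38.p14), written 5′ to 3′ on the strand of the gene, with motif matches in capitals. The AREG window is chr4:74444886-74445135 and the EREG window chr4:74364895-74365144, both on the plus strand, while the BTC window is chr4:74794524-74794773 on the minus strand and the EPGN window chr4:74308220-74308469 on the plus strand.
AREG: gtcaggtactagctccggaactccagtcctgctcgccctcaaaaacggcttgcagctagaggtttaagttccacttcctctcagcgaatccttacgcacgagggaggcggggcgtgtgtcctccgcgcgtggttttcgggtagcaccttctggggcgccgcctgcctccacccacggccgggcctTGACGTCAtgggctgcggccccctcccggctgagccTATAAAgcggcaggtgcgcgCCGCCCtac
EREG: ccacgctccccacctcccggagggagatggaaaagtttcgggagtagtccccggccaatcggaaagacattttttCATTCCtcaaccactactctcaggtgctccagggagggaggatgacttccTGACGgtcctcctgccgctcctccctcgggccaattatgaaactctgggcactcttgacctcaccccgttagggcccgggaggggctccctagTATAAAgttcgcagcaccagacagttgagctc
BTC: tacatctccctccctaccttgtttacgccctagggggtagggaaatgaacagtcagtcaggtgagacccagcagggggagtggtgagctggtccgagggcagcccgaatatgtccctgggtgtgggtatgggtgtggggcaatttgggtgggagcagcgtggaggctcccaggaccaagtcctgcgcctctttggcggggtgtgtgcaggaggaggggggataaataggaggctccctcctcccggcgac
EPGN: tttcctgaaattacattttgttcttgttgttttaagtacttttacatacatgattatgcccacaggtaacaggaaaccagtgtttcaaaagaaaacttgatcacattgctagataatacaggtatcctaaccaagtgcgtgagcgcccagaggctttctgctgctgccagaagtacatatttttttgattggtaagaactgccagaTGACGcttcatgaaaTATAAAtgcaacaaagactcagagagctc

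The motifs searched on both strands were the cyclic AMP response element (CRE, TGACGTCA) and its core TGACG, AP-1 (TGANTCA), the CARE element bound by ATF4 dimers (TGATGNAAN), TEAD (GGAATG), the TATA box (TATAAA), the GC box (GGGCGG) and an ETS site (CCGGAAG). A CRE match contains the core match. AREG held the CRE from 65 to 58 bases before its start, a match that 1.65% of 35116 windows of this length have. The core alone occurred in EREG (125 to 121 bases before the start) and EPGN (44 to 40), and 21.2% of windows hold it. AREG, EREG and EPGN had a TATA box between 32 and 24 bases before the start, against 10.7% of windows with that motif anywhere. EREG also had a TEAD match (175 to 170), found in 11.9% of windows, and AREG a GC box (9 to 4), found in 42.6%. BTC had no match to any of these letters. Among the members elsewhere in the genome, TGFA held the core (154 to 150), ERBB2 an AP-1 match (222 to 216) and ETS matches, and HBEGF, TGFA, EGFR and ERRFI1 held GC boxes. AP-1 letters occur in 6.57% of windows, CARE letters in 3.13% and ETS letters in 8.52%. Of the 10 members, 9 had a window in the RefSeq table, and ERBB3 did not.

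Histidine depletion changed the ligands in opposite directions, lowered ERBB2 and ERBB3, and raised EGFR and ERRFI1, while tryptophan depletion raised most ligands and changed the receptors by 1.10- to 1.29-fold. Values of the members per library are given as normalized counts on a scale common to all 6 libraries. Each log2 fold change and its standard error come from limma within the table of that depletion, on log2(normalized count + 1), with Benjamini-Hochberg adjustment over all genes tested, and the call threshold was an adjusted p of 0.05. Both depletions were compared with the same untreated libraries, so their differences from untreated are not independent, and the direct comparison of the depletions was fitted on the common scale. After histidine depletion 10 of 10 members passed the threshold, 5 higher and 5 lower, although EPGN could be tested only through its counts without histidine. This is to be read against 77.3% of 18288 tested genes called in either direction, 39.1% higher and 38.2% lower. A change of at least 2-fold was found in 3 higher members (TGFA, EPGN and ERRFI1), where 16.4% of all tested genes were, and in 3 lower members (BTC, ERBB2 and ERBB3), where 16.1% were. With quantile normalization 4 of these 6 members were past 2-fold, since the log2 fold changes of TGFA (0.91) and BTC (-0.96) were under that limit, although both were still called. After tryptophan depletion 9 members were tested and 9 called, with 70.8% of 17960 tested genes called. The 7 higher members stand beside 36.1% of tested genes and the 2 lower ones beside 34.8%. Over the 9 members other than EPGN, which were tested in both comparisons, the median log2 fold change was -0.44 after histidine and 0.38 after tryptophan depletion, against 0.010 and 0.013 for all tested genes. With EPGN the median after histidine depletion was 0.15.

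**Figure D1:**
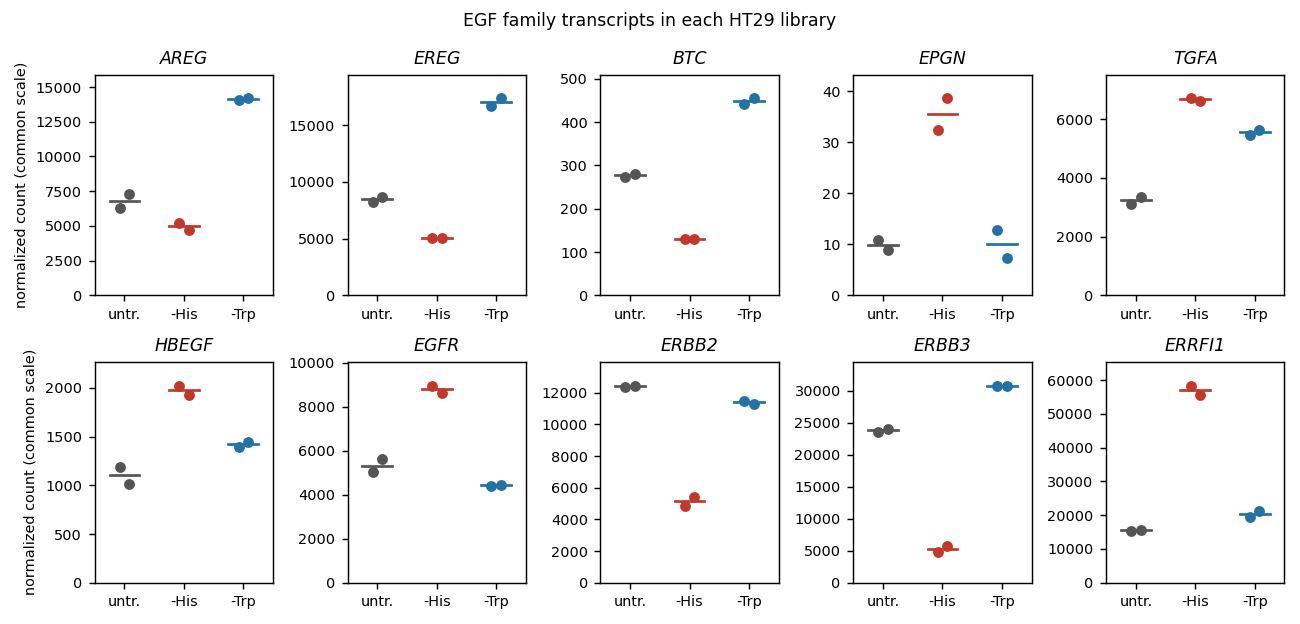
Normalized counts on the common scale (vertical axes, from 0) of the 10 genes in each library, with 2 points per condition (untreated, without histidine, without tryptophan) and a bar at their mean. AREG, EREG and BTC are lowest without histidine and highest without tryptophan, ERBB3 lies at 4794 and 5698 without histidine against 23505 or more elsewhere, and ERRFI1 reaches 55551 and 58378 without histidine.

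AREG encodes amphiregulin, a ligand of EGFR. It had 6309 and 7303 normalized counts in the untreated libraries, 5219 and 4719 without histidine and 14047 and 14195 without tryptophan. The histidine-depleted libraries were the lowest and the tryptophan-depleted ones the highest, with no overlap of the 3 conditions. AREG fell by 0.44 on the log2 scale after histidine depletion (SE 0.0624, adjusted p = 7.02e-07, 1.36-fold lower). It rose 2.06-fold after tryptophan depletion (log2 fold change 1.05, SE 0.0482, adjusted p = 4.60e-45). The adjusted p-values of the tryptophan comparison are this small because limma drew the spread of each gene almost wholly from the other genes (135.4 prior against 2 residual degrees of freedom, where the histidine comparison had 21.18 prior ones). The standard errors rest on the same borrowed spread. Sizes and the values per library are therefore the better guide between the comparisons.

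EREG encodes epiregulin, which binds EGFR and ERBB4. Its normalized counts were 8269 and 8698 untreated, 5058 and 5032 without histidine, and 16654 and 17380 without tryptophan. The 3 conditions were ordered as for AREG and again did not overlap. The decrease after histidine depletion was 1.67-fold (log2 fold change -0.74, SE 0.0501, adjusted p = 1.50e-12). The increase after tryptophan depletion was 2.00-fold (log2 fold change 1.00, SE 0.0473, adjusted p = 1.21e-43).

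BTC encodes betacellulin, another ligand of EGFR and ERBB4, and was far less abundant. It had 274 and 280.5 normalized counts untreated, 131 and 130.2 without histidine, and 443 and 455 without tryptophan. The order of the conditions was that of AREG and EREG, with close replicates in each. BTC was 2.11-fold lower after histidine depletion (log2 fold change -1.07, SE 0.122, adjusted p = 2.16e-08) and 1.61-fold higher after tryptophan depletion (0.69, SE 0.0950, adjusted p = 1.05e-10).

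EPGN, the gene of epigen, lies at the other end of the chromosome 4 stretch from BTC and did not share this order. It had 10.9 and 8.95 normalized counts untreated, 32.5 and 38.7 without histidine, and 12.8 and 7.33 without tryptophan. Only the histidine-depleted libraries stood apart, while the other 4 overlapped. Its mean of 22.7 passed the minimum of 10 through the histidine-depleted libraries alone, so it could be tested there only because it differed (log2 fold change 1.75, SE 0.336, adjusted p = 5.06e-05). In the tryptophan table its mean was 9.80 and it was not tested. At 36 and 38 reads without histidine and 10 and 9 untreated, the counting error of EPGN is large.

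TGFA encodes transforming growth factor alpha, a ligand of EGFR. Its normalized counts were 3111 and 3357 untreated, 6711 and 6631 without histidine, and 5465 and 5638 without tryptophan. Both depletions lay above untreated, and histidine depletion lay above tryptophan depletion. The increase was 2.08-fold after histidine depletion (log2 fold change 1.05, SE 0.0524, adjusted p = 3.70e-15) and 1.71-fold after tryptophan depletion (0.77, SE 0.0482, adjusted p = 2.92e-32).

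HBEGF, the heparin-binding ligand of EGFR and ERBB4, had the same order of conditions as TGFA. It had 1189 and 1016 normalized counts untreated, 2024 and 1931 without histidine, and 1393 and 1449 without tryptophan. The conditions did not overlap, although the untreated libraries were further apart than the replicates of either depletion. HBEGF rose 1.81-fold after histidine depletion (log2 fold change 0.86, SE 0.0681, adjusted p = 3.33e-11) and 1.28-fold after tryptophan depletion (0.36, SE 0.0614, adjusted p = 6.88e-08).

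Of the receptors, EGFR binds all 6 ligands described here. It had 5018 and 5605 normalized counts untreated, 8960 and 8627 without histidine, and 4399 and 4444 without tryptophan. Histidine-depleted libraries were the highest and tryptophan-depleted ones the lowest, without overlap. EGFR rose 1.67-fold after histidine depletion (log2 fold change 0.74, SE 0.0551, adjusted p = 9.85e-12). After tryptophan depletion it was 1.21-fold lower (log2 fold change -0.27, SE 0.0481, adjusted p = 2.69e-07), a call that was lost when limma was run without its mean-variance trend (adjusted p = 0.0501, the largest of 14 alternatives).

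ERBB2 has no known ligand and serves as the preferred partner of the other receptors. Its normalized counts were 12385 and 12464 untreated, 4873 and 5422 without histidine, and 11498 and 11289 without tryptophan. The histidine-depleted libraries were below all others, and the tryptophan-depleted ones were slightly below untreated. ERBB2 was 2.40-fold lower after histidine depletion (log2 fold change -1.26, SE 0.0532, adjusted p = 1.51e-16). After tryptophan depletion the log2 fold change was -0.13 (SE 0.0469, adjusted p = 0.00858), and this call did not hold without the trend (adjusted p = 0.0843), without tryptophan-depleted replicate 1 (0.161) or without replicate 2 (0.215, the largest of 14 alternatives). With 1 tryptophan-depleted library left, the spread came from the untreated pair and from the other genes, and the lone library was assumed to vary like that pair.

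ERBB3 binds neuregulins and, with a weak kinase of its own, signals through its partners, chiefly to PI3K. It had 23505 and 24043 normalized counts untreated, 4794 and 5698 without histidine, and 30781 and 30779 without tryptophan. No other member had a larger decrease, and the tryptophan-depleted libraries were above untreated. ERBB3 fell 4.50-fold after histidine depletion (log2 fold change -2.18, SE 0.0608, adjusted p = 6.43e-20) and rose 1.29-fold after tryptophan depletion (0.37, SE 0.0508, adjusted p = 1.15e-10).

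ERRFI1, the feedback inhibitor, had 15346 and 15625 normalized counts untreated, 58378 and 55551 without histidine, and 19500 and 21144 without tryptophan. It had the highest count of the members without histidine, and the tryptophan-depleted libraries lay between the other conditions. The increase was 3.70-fold after histidine depletion (log2 fold change 1.89, SE 0.0547, adjusted p = 1.21e-19) and 1.31-fold after tryptophan depletion (0.38, SE 0.0489, adjusted p = 3.78e-12).

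After tryptophan depletion AREG was the 1 higher member past a 2-fold change, where 10.0% of tested genes were higher by as much, and neither of the 2 lower members reached that size, where 10.4% of tested genes did. AREG and EREG lie at this limit. The count was 0 with quantile normalization and without untreated replicate 1, and 2 in the fit on all 6 libraries, without untreated replicate 2 and without tryptophan-depleted replicate 1.

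**Figure D2:**
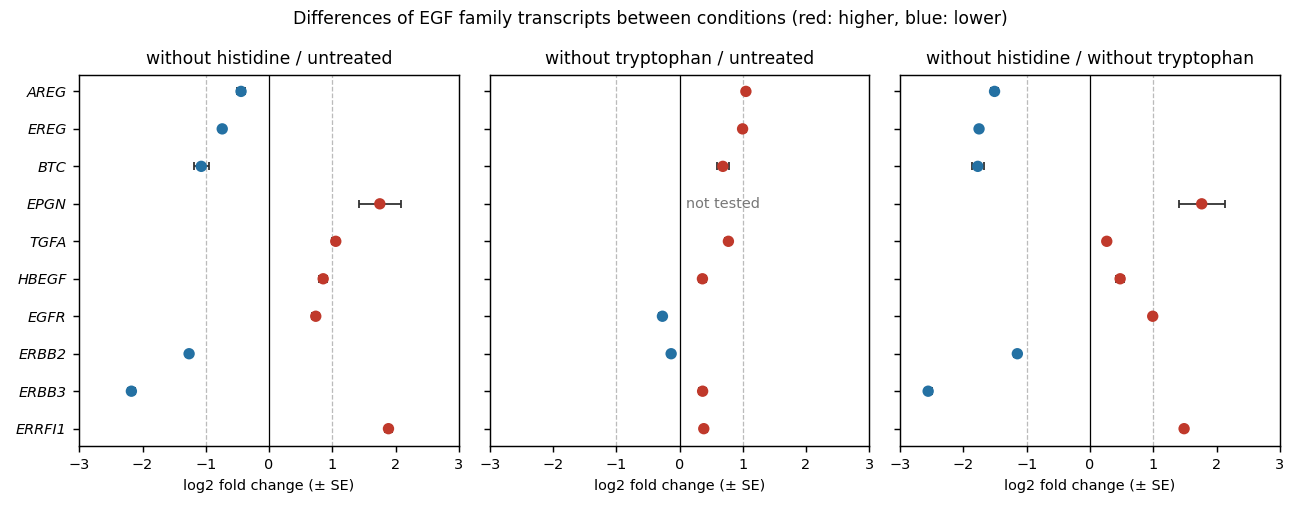
Log2 fold change (horizontal axis) of each member with its standard error (bars) for histidine depletion against untreated, tryptophan depletion against untreated and the direct comparison of both; red points are called higher, blue ones lower, and dashed lines mark a 2-fold change. EPGN was not tested after tryptophan depletion. AREG, EREG, BTC and ERBB3 lie left of 0 in the first panel and right of 0 in the second, while EGFR does the reverse.

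The direct comparison tested whether the depletions differed from each other, and here too the missing amino acid and the medium base (RPMI or DMEM F-12) cannot be told apart. All 10 members were called, 5 higher and 5 lower without histidine, beside 77.0% of 18276 tested genes called, 39.1% higher and 37.8% lower. The median was -1.15 over the 9 members other than EPGN and -0.44 with EPGN, against 0.018 over all tested genes. The 5 lower members were each past 2-fold, where 15.6% of tested genes were. ERBB3 was 5.87-fold lower without histidine than without tryptophan (log2 fold change -2.56, SE 0.0574, adjusted p = 2.17e-16). BTC was 3.44-fold lower (-1.77, SE 0.0988, adjusted p = 2.64e-11), EREG 3.37-fold (-1.75, SE 0.0404, adjusted p = 2.94e-16), AREG 2.84-fold (-1.51, SE 0.0583, adjusted p = 1.91e-13) and ERBB2 2.21-fold (-1.15, SE 0.0459, adjusted p = 2.95e-13). Of the 5 higher members, 2 were past 2-fold, where 16.4% of tested genes were. These were ERRFI1 (log2 fold change 1.49, SE 0.0449, adjusted p = 7.61e-15) and EPGN (1.77, SE 0.364, adjusted p = 0.000304), the latter with 36 and 38 reads without histidine and 12 and 8 without tryptophan. EGFR was 1.99-fold higher without histidine (0.99, SE 0.0480, adjusted p = 3.90e-12). HBEGF (0.48, SE 0.0652) and TGFA (0.27, SE 0.0438) differed least, with adjusted p-values of 3.73e-06 and 3.20e-05.

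Levels of different genes were compared per length, as TPM computed from the recovered reads and the merged exon length. In untreated cells the order was AREG (305 ± 31.7 TPM, SD, n = 2), ERRFI1 (273 ± 3.59), ERBB3 (149.6 ± 2.45), EREG (109 ± 3.96), ERBB2 (88.7 ± 0.434), TGFA (48.5 ± 2.63), HBEGF (27.2 ± 3.02), EGFR (24.6 ± 1.93), BTC (7.70 ± 0.124) and EPGN (0.222 ± 0.0312). The ranges of HBEGF and EGFR overlapped, and those of the other neighbours did not. AREG stood above 98.1% of protein-coding genes and EPGN above 35.6%. When the longest transcript was used as the length, 6 of the 10 places were kept in untreated cells, with EREG and ERBB2 exchanged and likewise HBEGF and EGFR.

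Without histidine the order was led by ERRFI1 at 942 ± 31.6 TPM (SD, n = 2), followed by AREG (209 ± 14.5), TGFA (93.7 ± 0.650), EREG (61.0 ± 0.120) and HBEGF (45.7 ± 1.44). The receptors came next with levels of 38.1 ± 0.960 for EGFR, 34.5 ± 2.65 for ERBB2 and 31.0 ± 3.82 for ERBB3, and the ranges of ERBB2 and ERBB3 overlapped. BTC (3.40 ± 0.00881) and EPGN (0.746 ± 0.0921) remained last. Without tryptophan the order was AREG (613 ± 3.81), ERRFI1 (346 ± 19.4), EREG (212 ± 6.16), ERBB3 (187 ± 0.227), TGFA (80.4 ± 1.68), ERBB2 (78.6 ± 1.11), HBEGF (33.8 ± 0.904), EGFR (19.8 ± 0.120), BTC (12.1 ± 0.218) and EPGN (0.217 ± 0.0839), with overlap between TGFA and ERBB2 only. These orders also depended on the length used. With the longest transcript, HBEGF (41.7 TPM) and ERBB2 (52.0 TPM) exchanged places without histidine, so that ERBB2 was above EGFR (44.2 TPM) and ERBB3 (41.7 TPM), whose range then overlapped that of EGFR, had the lower mean. Without tryptophan ERBB3 (257 TPM) was then above EREG (193 TPM) and ERBB2 (121 TPM) above TGFA (70.4 TPM).

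**Figure D3:**
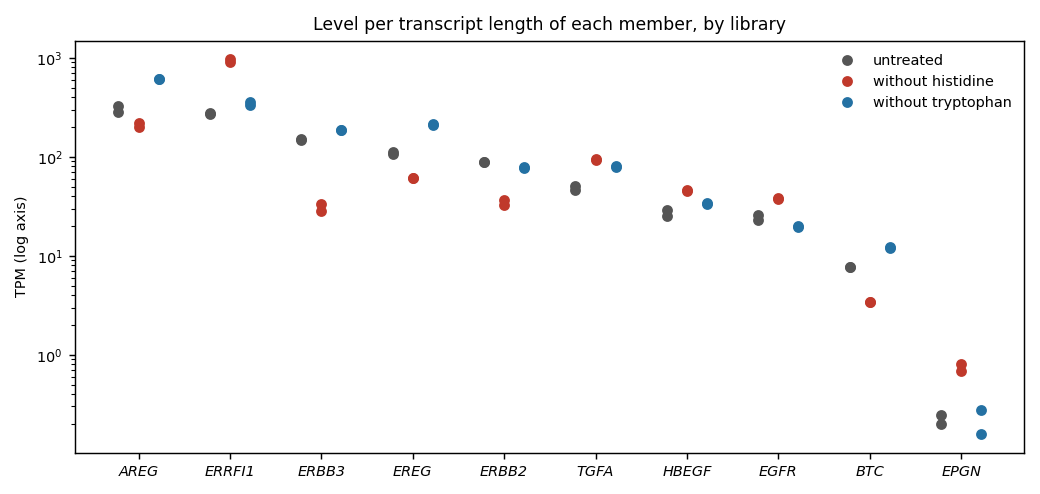
Level of each member in TPM (vertical log axis) in each of the 6 libraries, ordered by the untreated mean, with 2 points per condition. ERBB3 and ERBB2 drop below EGFR without histidine on this length scale, and ERRFI1 reaches 919 and 964 TPM there.

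The make-up of the ligand and receptor transcripts differed between conditions. Summed over the 6 ligands, the level was 473 and 523 TPM in the untreated libraries, 425 and 402 without histidine, and 942 and 960.3 without tryptophan. AREG and EREG together took 83.2% ± 1.25 (SD, n = 2) of the ligand sum in untreated cells, 65.3% ± 0.913 without histidine and 86.7% ± 0.109 without tryptophan. TGFA and HBEGF took 15.2% ± 1.16, 33.7% ± 0.853 and, in the tryptophan-depleted libraries, 11.9% and 12.1%. The sum of the 3 receptors was 259 and 266 TPM untreated, 99.6 and 107 without histidine, and 286 and 285 without tryptophan. ERBB3 made up 56.9% ± 0.109 of it in untreated cells, 29.8% ± 2.10 without histidine and 65.6% ± 0.200 without tryptophan, and EGFR 9.34% ± 0.562, 36.9% ± 2.89 and 6.92% ± 0.0714. The share of ERBB2 was 33.8% ± 0.453, 33.3% ± 0.790 and 27.5% ± 0.271. For each EGFR transcript there were 6.11 ± 0.380 ERBB3 transcripts untreated, 0.814 ± 0.121 without histidine and 9.48 ± 0.0689 without tryptophan. With the longest transcript as length these ratios were 7.10, 0.945 and 11.01. The ratio of ERRFI1 to EGFR was 11.1 ± 0.729, 24.7 ± 0.206 and 17.5 ± 0.876. These shares and ratios were not tested.

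**Figure D4:**
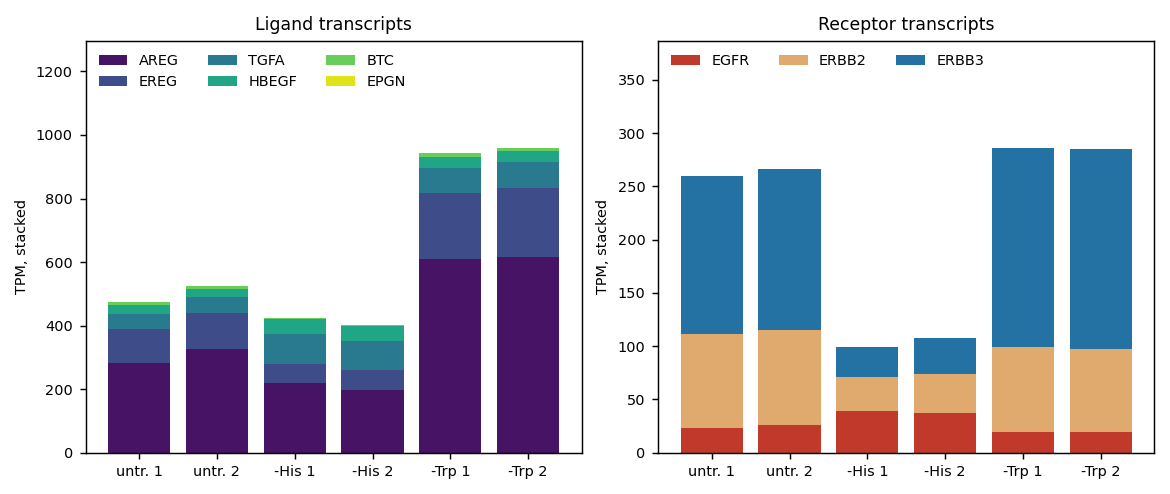
Stacked TPM of the 6 ligands (left) and the 3 receptors (right) in each library, with 2 bars per condition. The ligand stack is tallest without tryptophan through AREG and EREG, and the receptor stack falls to 99.6 and 107 TPM without histidine while its EGFR part grows.

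The codons of the depleted amino acids were counted in the coding sequence of the canonical transcript of each member. Histidine codons made up 5.63% of TGFA, above 96.8% of 19755 human coding sequences, 3.85% of HBEGF, 3.43% of ERBB3 and 3.25% of EPGN, against a median of 2.43% and an upper quartile of 3.16%. The lowest share was that of ERRFI1 (2.17%), and AREG (2.38%), EREG (2.37%) and BTC (2.25%) lay near the median. AREG, HBEGF and BTC have 0 tryptophan codons, and ERBB2, with 15 among 1255 codons, has the highest share of the members (1.20%, median of all coding sequences 1.13%).

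The patterns over the 6 libraries were compared as the root mean square difference of log2(normalized count + 1), each gene centred on its untreated mean. This is a description of 3 conditions with 2 libraries each. Among the members the closest pair was AREG and EREG (0.18), followed by EREG and BTC (0.26) and by HBEGF and TGFA (0.28). Among 11406 other protein-coding genes, EREG was closest to CBLB (0.053), which encodes a ubiquitin ligase that marks tyrosine kinase receptors for degradation, and AREG to MPC1 (0.057), a subunit gene of the mitochondrial pyruvate carrier. TGFA was closest to TIMP2 (0.030), a metalloprotease inhibitor gene, and BTC to MCTP2 (0.043). EGFR was closest to FRYL (0.022), ERBB2 to the mitochondrial ribosomal protein gene MRPS5 (0.013), ERBB3 to KCTD17 (0.073) and HBEGF to SETD4 (0.040). For ERRFI1 the closest genes were KCTD5 (0.033) and PLAU (0.043), the gene of the urokinase plasminogen activator.

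The remaining ligands and receptor of the family were hardly expressed. NRG1, NRG2, NRG3 and ERBB4 had at most 1 read in any of the 6 libraries. A count of 0 allows up to 3 reads, and a count of 1 allows more. These limits cover counting error only. EGF had 22 and 21 reads untreated, 22 and 13 without histidine and 47 and 54 without tryptophan, and the tryptophan-depleted libraries were the highest. It was called higher after tryptophan depletion (log2 fold change 1.11, SE 0.276, adjusted p = 0.000186) and not after histidine depletion (-0.43, SE 0.342, adjusted p = 0.251), and the depletions differed (-1.56, SE 0.288, adjusted p = 0.000104). NRG4, a ligand of ERBB4, had between 17 and 38 reads per library and was called in neither depletion.

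The genes that release or process the ligands were tested as 9 of 11 listed. For these and the genes that follow, normalized counts are those of the table of the depletion described, as mean ± SD of 2 libraries or as 2 values, so that the untreated value of a gene differs slightly between the depletions. After histidine depletion 5 were higher and 3 lower, beside 39.1% and 38.2% of all tested genes, with a median log2 fold change of 0.13 against 0.010. FURIN, the convertase that activates ADAM17, had 5991 ± 217 normalized counts untreated and rose to 11547 ± 285 (log2 fold change 0.95, adjusted p = 1.36e-14). ADAM17, the main sheddase of AREG, EREG, HBEGF and TGFA, had 2308 ± 15.4 normalized counts untreated and 2519 ± 74.05 without histidine (log2 fold change 0.13, adjusted p = 0.0373). RHBDF2 rose more than ADAM17 (log2 fold change 0.56, adjusted p = 4.87e-09), and ADAM15 fell (-0.50, adjusted p = 3.23e-09). RHBDL2, a membrane protease that cleaves EGF, fell from 674 ± 38.01 to 366 ± 16.7 (-0.88, adjusted p = 1.30e-09). After tryptophan depletion 5 were higher and 2 lower, beside 36.1% and 34.8% of all tested genes, with a median of 0.52 against 0.013. There FURIN rose from 5940 ± 199.9 to 14461 ± 60.2 (log2 fold change 1.28, adjusted p = 2.84e-56), and ADAM17 from 2288 ± 9.23 to 4152 ± 52.7 (0.86, adjusted p = 1.33e-35). RHBDL2 fell in this depletion too, from 668 ± 35.9 to 312 ± 27.8 (-1.10, adjusted p = 1.86e-24). Compared directly, 3 were higher and 5 lower without histidine (39.1% and 37.8% of all tested genes). The largest decrease in this list was that of ADAM15 (log2 fold change -1.08, adjusted p = 2.13e-13). RHBDF1, one of the cofactors of ADAM17 (-0.76, adjusted p = 9.69e-12), and ADAM17 itself (-0.75, adjusted p = 3.54e-11) followed.

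Of the adaptors and effectors next to the receptors, 23 of 24 listed were tested. After histidine depletion 10 were higher and 10 lower, where 39.1% and 38.2% of all tested genes were (median log2 fold change -0.077, against 0.010). MAP2K1, the kinase gene of MEK1, rose from 5444 ± 152 to 14107 ± 289 normalized counts (log2 fold change 1.37, adjusted p = 7.98e-18). PIK3R1, the regulatory subunit gene of PI3K, fell from 6222 ± 152 to 2553 ± 101 (-1.29, adjusted p = 6.62e-17), and MAPK3, which encodes ERK1, from 2628 ± 83.3 to 1172 ± 85.9 (-1.17, adjusted p = 1.11e-14). The adaptor gene SHC1 was higher (0.67, adjusted p = 1.01e-11), and PLCG1, the gene of phospholipase C gamma, was lower (-0.97, adjusted p = 1.70e-13). After tryptophan depletion 11 were higher and 6 lower, where 36.1% and 34.8% of all tested genes were (median 0.090, against 0.013). SHC1 rose there from 6595 ± 141 to 12788 ± 12.8 (0.96, adjusted p = 1.73e-42), and PLCG1 fell from 2839 ± 201 to 873 ± 41.4 (-1.70, adjusted p = 2.15e-60). PIK3R1 fell as well, from 6169 ± 135 to 3323 ± 65.1 (-0.89, adjusted p = 1.07e-38). Compared directly, 9 were higher and 13 lower without histidine (39.1% and 37.8% of all tested genes), and the median was -0.27 against 0.018. HRAS (1.02, adjusted p = 1.45e-11) and MAP2K1 (0.99, adjusted p = 2.17e-13) were among the higher. SOS1 (-1.27, adjusted p = 1.01e-13) and MAPK3 (-1.27, adjusted p = 3.25e-12) were among the lower.

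Genes of receptor turnover and inhibition were all tested, 23 in number. After histidine depletion 12 were higher and 7 lower, against 39.1% and 38.2% of all tested genes, and the median log2 fold change was 0.28 against 0.010. After tryptophan depletion 16 were higher and 5 lower, against 36.1% and 34.8% of all tested genes, and the median was 0.25 against 0.013. SOCS3, a cytokine signalling suppressor gene, had 43.3 and 62.3 normalized counts untreated and 501 and 478 without histidine (3.21, SE 0.152, adjusted p = 1.37e-15), and it was also higher without tryptophan (1.05, SE 0.193, adjusted p = 5.14e-07). LRIG1 and LRIG3 encode membrane proteins of a family in which LRIG1 is known to restrain EGF receptors. LRIG1 fell from 1963 ± 13.7 to 589 ± 5.69 without histidine (-1.74, adjusted p = 1.10e-17), and from 1946 ± 18.7 to 1256 ± 56.0 without tryptophan (-0.63, adjusted p = 2.00e-20). LRIG3 fell from 818 ± 12.9 to 259 ± 6.72 without histidine (-1.66, adjusted p = 6.95e-15). HGS, an endosomal sorting gene, rose from 3620 ± 65.1 to 9776 ± 7.16 without histidine (1.43, adjusted p = 2.81e-18). Compared directly, 10 of the 23 were higher and 13 lower without histidine, where 39.1% and 37.8% of all tested genes were, and the median was -0.17 against 0.018. SOCS3 (log2 fold change 2.14, adjusted p = 1.16e-09) and PTPN1, a tyrosine phosphatase gene (1.13, adjusted p = 4.68e-14), were among the higher, and CBLB (-1.65, adjusted p = 3.82e-14) and LRIG3 (-1.21, adjusted p = 2.15e-10) among the lower.

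Genes that ERK signalling is known to induce were also all tested, 20 in number. After histidine depletion 11 were higher and 5 lower, against 39.1% and 38.2% of all tested genes. Of the 20, 7 were higher by at least 2-fold, as were 16.4% of all tested genes, and the median log2 fold change was 0.40 against 0.010. DUSP5, a nuclear ERK phosphatase gene, rose from 1168 ± 34.2 to 9348 ± 254 normalized counts (8.01-fold, adjusted p = 1.19e-23), and the AP-1 gene FOSL1 from 2117 ± 6.36 to 14670 ± 226 (log2 fold change 2.79, adjusted p = 1.40e-23). ETV4, an ETS factor gene, fell from 7917 ± 259 to 2407 ± 260 (-1.72, adjusted p = 4.03e-18), and SPRY2, a RAS-ERK inhibitor gene, from 1646 ± 46.7 to 1042 ± 38.8 (-0.66, adjusted p = 7.42e-10). The list thus moved both ways, although only 1 gene, ETV4, was lower by at least 2-fold, as were 16.1% of all tested genes. After tryptophan depletion 6 were higher and 7 lower, against 36.1% and 34.8% of all tested genes, with a median of 0.049 against 0.013. DUSP5 rose there from 1158 ± 30.9 to 4244 ± 230.1 (1.87, adjusted p = 1.45e-69), and SPRY2 fell from 1632 ± 42.02 to 877 ± 35.2 (-0.90, adjusted p = 2.36e-29). Compared directly, where 39.1% of all tested genes were higher and 37.8% lower without histidine, 12 of the 20 were higher, among them FOSL1 (2.56, adjusted p = 9.92e-18) and PHLDA1 (2.03, adjusted p = 8.85e-17), and 4 were lower, among them ETV4 (-1.76, adjusted p = 1.69e-14) and ETV5 (-0.95, adjusted p = 6.48e-13).

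**Figure D5:**
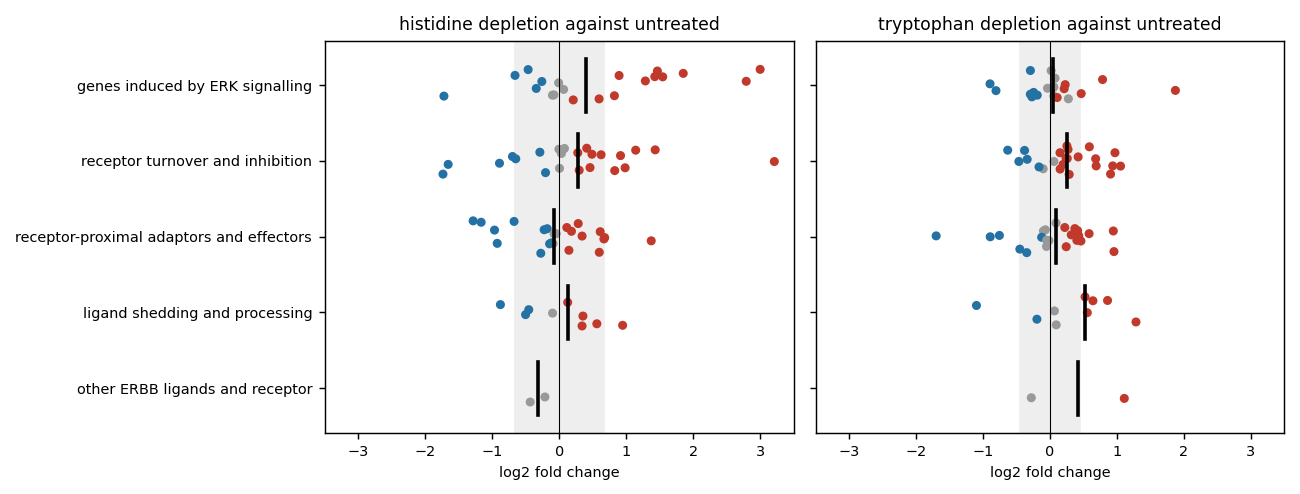
Log2 fold change (horizontal axis) of each tested gene of the 5 pathway lists after histidine (left) and tryptophan (right) depletion; red points are called higher, blue lower and grey not called, the black bar is the list median and the shaded band holds the middle of all tested genes between their quartiles. In the ERK list 7 genes exceed 1 without histidine.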

How the data were processed

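RNA-seq of 6 HT29 libraries in 3 conditions was used. According to the methods, reads were mapped to GRCh38 by STAR 2.7.10a, and htseq-count 2.0.5 assigned them to gencode 38 exons. The authors then divided the counts by DESeq2 size factors and deposited the result, a non-negative signal called normalized counts here, as 2 tables, each normalized on its own 4 libraries. How strand and molecular identifiers were used in counting is not given in the sources used here. No column of another sample was present.

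Every value was a whole multiple of the step of its library (tolerance 0.001), so whole reads were recovered for 100% of values. Names and coordinates came from gencode 44, which held 60357 of the 60676 identifiers. A gene was tested where its normalized counts averaged 10 or more over the libraries compared. The test was that of limma 3.58.1 (R 4.3.3, with the mean-variance trend, two-sided) on log2 values with a pseudocount of 1, which understates changes of low genes. For the direct comparison, median-of-ratios size factors put the 6 libraries, as recovered reads, on a common scale. On the recovered reads edgeR 4.0.16 called 7169 genes higher and 7111 lower after histidine depletion, and DESeq2 1.42.0 6330 and 6154. After tryptophan depletion edgeR called 6490 and 6349, and DESeq2 5423 and 5354. On simulated counts, 187 of 17326 genes were changed in the histidine design and 188 of 17367 in the tryptophan design. There limma recovered 89.2% and 86.3% of 2-fold changes, and DESeq2 75.3% and 73.7%. Of the limma calls, 5.4% were false in each design. In the data 77.3% and 70.8% of tested genes were called, far more than were changed in the simulation. The recovered shares therefore do not give the sensitivity in these data.

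The members, the 5 pathway lists and the tests were chosen with earlier results of these data known. Named pathway genes were, per list and comparison, up to 2 per direction with the largest called change, provided that the replicates did not overlap and that the higher condition averaged 100 or more, and for patterns the 2 closest protein-coding genes per member. Not every gene so selected is given, and genes of the first list were named whatever their call. ADAM17, selected in the tryptophan comparison, was also given in the histidine and direct comparisons, where genes with larger changes were selected instead. SHC1 and PLCG1, selected in the tryptophan comparison, were likewise also given in the histidine comparison. The results were recomputed with edgeR, with DESeq2, after quantile normalization, without the trend, with a pseudocount of 0.5 or 8, without the minimum or with one of 50, with all 6 libraries in 1 fit, with the replicate number as a block, with another transcript length for the levels, and with each library left out. Tables and plots were made in Python 3.11.15 (pandas 2.3.3, numpy 2.4.6, matplotlib 3.10.9).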

Additional observations from a re-analysis of the deposited data

How the results depend on the processing

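No member changed direction in any alternative and comparison in which it was tested. Of the single comparisons of a member under an alternative, 410 kept their side of the threshold and 4 did not, all of them after tryptophan depletion (EGFR once and ERBB2 3 times, with the values given above). The number of members called after tryptophan depletion with at least a 2-fold change was 1, and it was 0 with quantile normalization, 2 in the fit on all 6 libraries and 0 to 2 with a library left out. AREG and EREG lie close to that limit. The same count was 6 after histidine depletion, and it was 4 with quantile normalization, 5 with a minimum mean of 50, where EPGN was not tested, and 5 to 6 with a library left out. In the direct comparison it was 7, with 6 to 8 over the alternatives. Over the 5 pathway lists, 63 genes were called after histidine depletion, but 54 without the trend and 57 without the minimum mean. Calls among all tested genes also went from 7149 higher and 6981 lower to 6619 and 6499 without the trend. With the longest transcript as length, 6 of 10 members kept their place in the untreated order, 8 without histidine and 6 without tryptophan. With the replicate number as a block, 10, 9 and 10 members were called in the histidine, tryptophan and direct comparisons, as without it. The numbers gave no sign of pairing, since the differences between replicates 1 and 2 correlated across genes at 0.050 between untreated and histidine-depleted libraries, at 0.0074 between untreated and tryptophan-depleted ones and at -0.034 between the depletions. With 2 libraries per condition the spread of a single gene is poorly known, and EPGN, EGF and NRG4 are limited by their read numbers.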

Other observations

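The stretch of chromosome 4 that holds the 4 ligand genes also contains 2 long noncoding RNA genes of the tables, which were looked at after the values of their neighbours were seen. ENSG00000249942 (74552584 to 74589481), between AREG and BTC, had 7.65 and 3.98 normalized counts on the common scale in the untreated libraries, 7.23 and 13.2 without histidine, and 42.7 and 33.0 without tryptophan. Its tryptophan-depleted libraries stood above the other 4, which overlapped. It reached the minimum mean of 10 only through the tryptophan-depleted libraries (5.72 ± 2.55 normalized counts untreated and 37.0 ± 6.50 without tryptophan in that table, SD, n = 2 each), so its call there (log2 fold change 2.54, SE 0.397, adjusted p = 6.10e-09 with limma) is given as a description. It was not tested after histidine depletion. ENSG00000250532 (74418917 to 74440457), just before AREG, had at most 1 read in any library.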
